A study of Homo sapiens with 12 samples.

Results

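The 281 genes described here are the protein-coding genes of human chromosomes 18 (167 genes) and 21 (114 genes) that reached 10 counts in at least 3 of 12 RNA-sequencing libraries, out of 58051 rows in the count table. They were chosen by their chromosome together with a measured property: in these libraries the ratio of SDC3-knockout to wild-type cells was lower along chromosome 18 and higher along chromosome 21 than on the other autosomes. That ratio is therefore given below as a description, with no test. The response to interferon-gamma (IFN-gamma) inside each genotype did not enter the choice and was tested. The difference between the 2 responses was tested too. That difference equals the genotype ratio with IFN-gamma minus the ratio without it, and the choice used only the common direction of these 2 ratios. A list of 24 genes of the 2 chromosomes at the same count minimum was left out by name, mostly interferon receptors, antiviral genes, respiratory chain subunits and other genes with roles of their own.

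All libraries came from THP-1, an established human monocytic leukaemia line that phorbol 12-myristate 13-acetate (PMA) turns into adherent, macrophage-like cells. The study asked how syndecan-3, a cell-surface heparan sulphate proteoglycan encoded by SDC3, bears on the pro-inflammatory functions of macrophages. There were 4 groups of 3 libraries: SDC3 knockout with IFN-gamma, wild type with IFN-gamma, SDC3 knockout without IFN-gamma and wild type without IFN-gamma. Every group received PMA at 20 ng/ml for 24 h, after which the medium was renewed. The treated groups got recombinant IFN-gamma the day after. The knockout was made with CRISPR/Cas9. The labels give neither the dose and duration of IFN-gamma nor how many edited lines stand behind the knockout, so the edited genotype and any other property of the line or lines that carry it cannot be told apart. Nothing in the labels says that the 3 libraries of a group are separate cultures, and the p-values then reflect no more than how these libraries scatter, in part perhaps for technical reasons. The libraries measure RNA. Chromosome number and DNA copies were not analysed here.

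Genes that sit side by side on a chromosome share their copy number, and a gained or lost chromosome or arm usually shifts the RNA of many of its genes in the same direction, by amounts that differ from gene to gene. Chromosome 18 carries SMAD2, SMAD4 and SMAD7 of the transforming growth factor-beta pathway, and chromosome 21 carries APP, DYRK1A and the other genes studied in Down syndrome. IFN-gamma acts through JAK kinases and is read out at a palindrome called the gamma-activated site (GAS), while interferon regulatory factors bind the interferon-stimulated response element (ISRE).

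The 250 bases before a start site are shown for 4 members, as examples of the letters in which motifs are counted further on. Whether these bases bear on the IFN-gamma responses was not tested. PSTPIP2 and C21orf91 had the largest rises with IFN-gamma in wild type on chromosomes 18 and 21 among members at 5 CPM or more (CPM, counts per 1000000 counts of the library) that were called in both genotypes, and neither window holds a GAS or an ISRE by letter. The window of DSC2, at the second of its 2 start sites in the table, holds a GAS, and that of SLC37A1, at one of its 2, holds an ISRE read on the other strand. Capitals mark these motifs, which begin 63 and 41 bases before the start. Sequences are from RefSeq on build GRCh38.p14, 5′ to 3′ on the strand of the gene: chr18:46072261-46072510 (minus), chr18:31101261-31101510 (minus), chr21:17819357-17819606 (minus) and chr21:42513602-42513851 (plus).
PSTPIP2: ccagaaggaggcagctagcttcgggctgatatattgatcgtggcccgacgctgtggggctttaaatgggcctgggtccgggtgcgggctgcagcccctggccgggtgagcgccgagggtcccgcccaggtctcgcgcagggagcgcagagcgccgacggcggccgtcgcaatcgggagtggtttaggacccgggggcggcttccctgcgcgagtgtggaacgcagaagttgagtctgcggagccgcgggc
DSC2: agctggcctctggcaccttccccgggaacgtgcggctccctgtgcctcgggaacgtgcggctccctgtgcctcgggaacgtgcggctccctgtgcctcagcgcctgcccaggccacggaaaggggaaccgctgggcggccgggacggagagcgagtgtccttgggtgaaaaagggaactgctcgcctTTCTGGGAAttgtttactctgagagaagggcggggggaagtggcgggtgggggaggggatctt
C21orf91: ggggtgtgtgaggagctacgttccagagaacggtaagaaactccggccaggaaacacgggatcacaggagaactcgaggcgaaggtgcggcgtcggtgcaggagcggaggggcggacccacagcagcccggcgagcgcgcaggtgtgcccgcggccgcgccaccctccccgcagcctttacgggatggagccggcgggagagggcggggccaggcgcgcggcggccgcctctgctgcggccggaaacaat
SLC37A1: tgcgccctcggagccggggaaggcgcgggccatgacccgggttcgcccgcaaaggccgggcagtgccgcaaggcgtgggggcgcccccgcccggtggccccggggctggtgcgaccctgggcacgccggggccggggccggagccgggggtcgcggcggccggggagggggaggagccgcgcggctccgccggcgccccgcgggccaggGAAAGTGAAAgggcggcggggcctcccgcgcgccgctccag

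Library totals ran from 23616738 to 29426415 counts, with 21529 to 23426 genes counted per library. Levels are given as CPM, after scaling by trimmed mean of M values (TMM, factors 0.88 to 1.12), and CPM does not correct for gene length, so levels are compared between groups and not between genes. SDC3 itself was at 41.2% of wild type in the knockout with IFN-gamma (239 against 580.2 CPM) and at 20.6% without (47.3 against 230.0), with no overlap between groups. Monocyte and macrophage genes were present in every library (CD14 at 310 to 758, CSF1R at 1214 to 1908, ITGAM at 457 to 610 CPM). CD68 was at no more than 0.65 CPM. HBB, KRT5 and MS4A1 had 0 counts in all 12 libraries, and CD3D, CD3E and EPCAM had no more than 4 counts in any. In bulk RNA of this kind, fewer cells of a type and less RNA per cell cannot be told apart.

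The median member of chromosome 18 stood at 74.5% of its wild-type level in knockout cells with IFN-gamma, a log2 ratio of -0.42, and at 75.9% (-0.40) without. The median member of chromosome 21 stood at 136% (0.44) with IFN-gamma and at 138% (0.46) without. Of the 167 members of chromosome 18, 149 lay below 0 with IFN-gamma and 154 without. Of the 113 members of chromosome 21 that passed the filter on low counts, 102 lay above 0 with IFN-gamma and 94 without. Without SERPINB10 and UMODL1, which had 0 counts in a whole group, the medians were -0.43 and -0.40 on chromosome 18 and 0.43 and 0.46 on chromosome 21. EVA1C was the single member that did not pass that filter. Among 12533 protein-coding genes of the other 20 autosomes the median was -0.01 with IFN-gamma, with quartiles of -0.32 and 0.22, and 0.01 without.

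With library totals in place of TMM the median was -0.50 on chromosome 18 and 0.36 on chromosome 21 with IFN-gamma. Members were selected on this ratio, so its counts and medians describe the selection, and the counts by role below are counts of members above or below 0.

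When the autosomes were ordered by the median ratio of their protein-coding genes, the genes left out by name included, 18 was lowest and 21 highest in both treatments. With IFN-gamma the next lowest were chromosomes 12 (-0.24), 17 (-0.22) and 20 (-0.22), and the next highest were 9 (0.15) and 16 (0.13). Without IFN-gamma the next lowest were 13 (-0.22), 12 (-0.21) and 3 (-0.19), and the next highest 16 (0.20) and 9 (0.18).

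**Figure D1:**
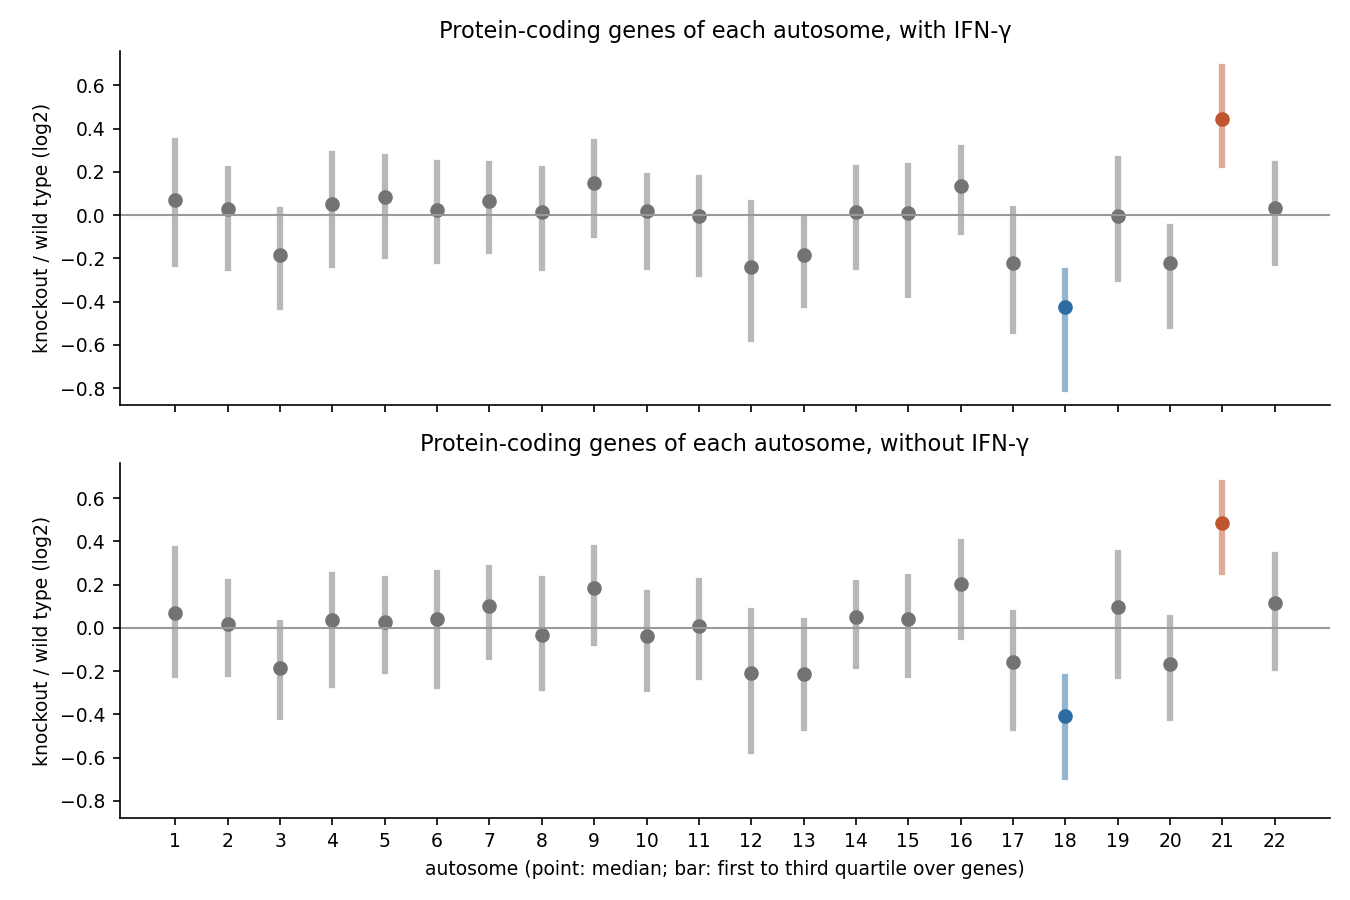
Median log2 ratio of knockout to wild type for the protein-coding genes of each of 22 autosomes, with and without IFN-gamma; the horizontal axis is the autosome and the vertical axis the log2 ratio, with points for medians and bars from the lower to the upper quartile over genes. Chromosome 18 is lowest (-0.43 and -0.41) and chromosome 21 highest (0.44 and 0.48).

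Along both chromosomes the windows that held enough members lay on 1 side of 0. In windows of 10 Mb holding at least 5 members, the 8 windows of chromosome 18 had medians from -0.54 to -0.32 with IFN-gamma and from -0.55 to -0.27 without, all below 0. The 44 members before the widest gap between members, from USP14 to ZNF519, had a median of -0.48 with IFN-gamma, and the 123 after it, from ROCK1 to PARD6G, -0.40. Without IFN-gamma the medians were -0.43 and -0.39. The 5 windows of chromosome 21 had medians from 0.39 to 0.73 with IFN-gamma and from 0.11 to 0.49 without, all above 0, the lowest of the latter over the 9 genes from RBM11 to CHODL. Among 272 windows of the other autosomes the range was -0.74 to 0.51 with IFN-gamma and -0.69 to 0.52 without. Of these, 13 with IFN-gamma and 18 without were at or below the highest window of chromosome 18, and 3 and 53 were at or above the lowest window of chromosome 21. Windows on 1 side of 0 were not particular to these chromosomes: with IFN-gamma all windows of chromosomes 3 (20), 13 (9), 17 (9) and 20 (7) were below 0 and all 9 of chromosome 16 above 0. Without IFN-gamma all windows of chromosomes 3, 13 and 20 were below 0 and all of 16 and 22 above 0. In windows of 5 Mb and of 20 Mb holding at least 5 members, those of chromosome 18 were again all below 0. Those of chromosome 21 were all above 0. A 5 Mb window of chromosome 18 with only 2 members, PIK3C3 and SETBP1, had a median of 0.90 without IFN-gamma. Of 491 windows of 5 Mb on the other autosomes, 36 with IFN-gamma and 63 without were at or below the highest of chromosome 18, and 12 and 155 at or above the lowest of chromosome 21.

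**Figure D2:**
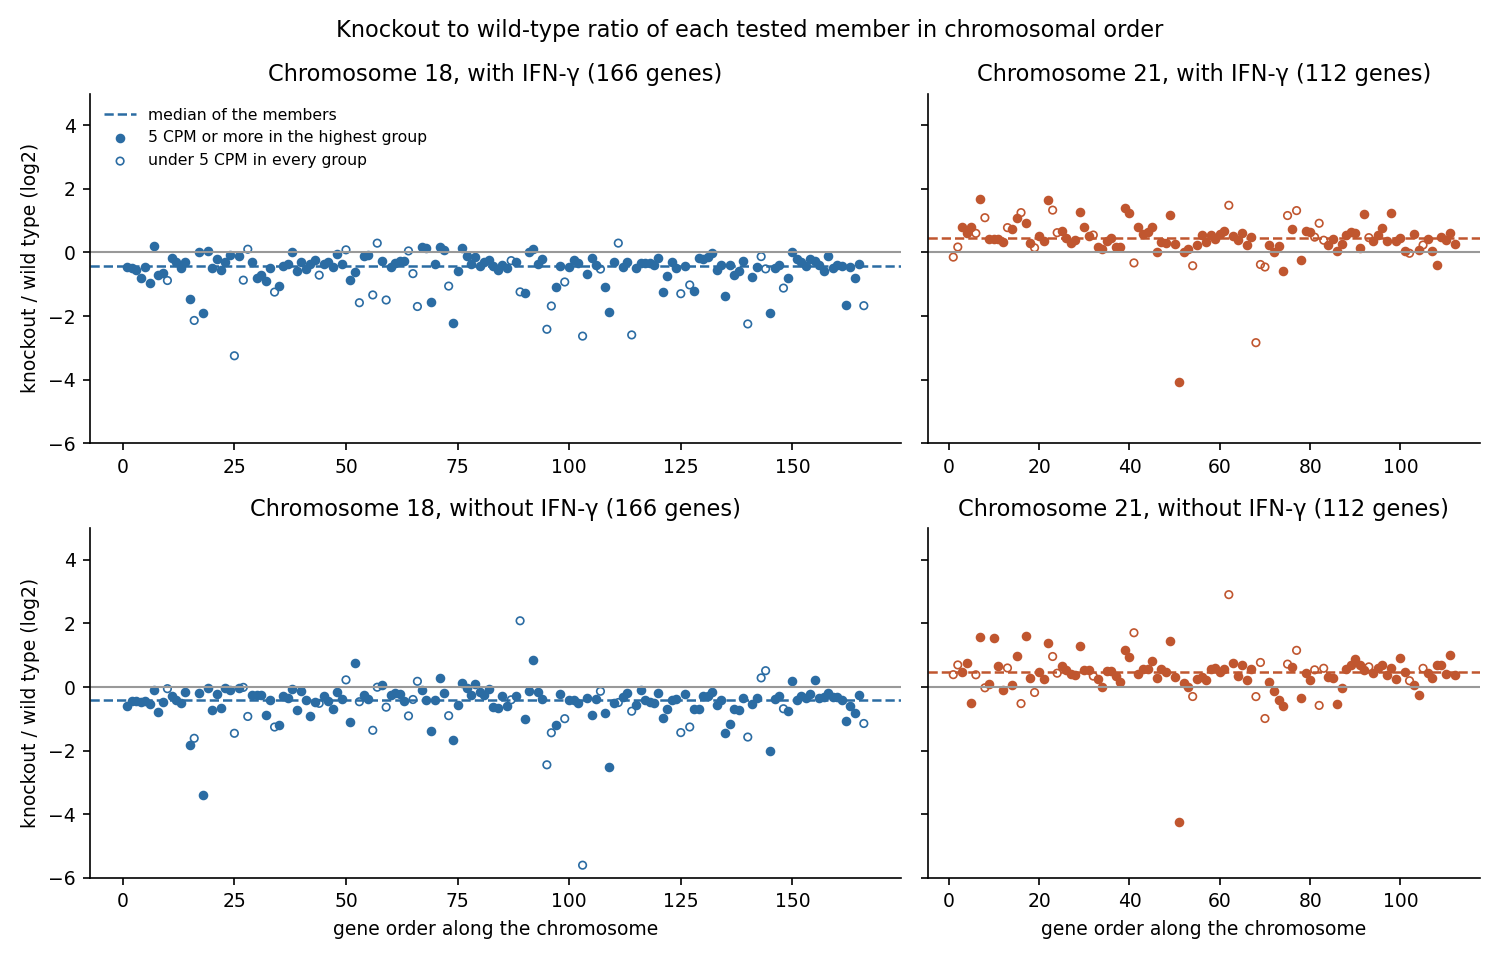
Log2 ratio of knockout to wild type for each member, ordered along chromosome 18 (166 genes) and chromosome 21 (112 genes), with and without IFN-gamma; each point is a gene and the horizontal lines mark 0 and the chromosome's median. SERPINB10 and UMODL1, at 0 counts in a whole group, are not drawn, and the points lie mostly below 0 on 18 and mostly above 0 on 21.

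At the count threshold of the rule, HMSD, L3MBTL4 and RNF165 on chromosome 18 and EVA1C on chromosome 21 were just inside, with 10 counts in the last of the 3 libraries needed. DLGAP1, MOCOS and RAB27B on 18 and CBSL and PWP2 on 21 were just outside, with 8 there. Of 269 protein-coding rows of chromosome 18, 175 reached the minimum and 8 of those were left out by name. Of 230 on chromosome 21, 130 reached it and 16 were left out. The minimum can be reached through 1 genotype alone, which favours genes that differ. The 9 such members of chromosome 18 had a median of -2.14 with IFN-gamma, with 1 above 0, and the 7 of chromosome 21 a median of 1.09, with 2 below 0. The 158 and 106 members that reached the minimum in both genotypes had medians of -0.41 and 0.43.

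The share of each library that the members took restates the ratio they were selected on, library by library. Members of chromosome 18 took 0.999%, 1.01% and 1.02% of all counts in the wild-type libraries with IFN-gamma and 0.769%, 0.773% and 0.778% in the knockout libraries. Without IFN-gamma they took 0.950%, 0.942% and 0.962% in wild type and 0.713%, 0.734% and 0.741% in the knockout. Every knockout library was below every wild-type library in both treatments. Members of chromosome 21 took 0.655%, 0.659% and 0.653% in wild type with IFN-gamma and 0.849%, 0.843% and 0.857% in the knockout. Without IFN-gamma the shares were 0.753%, 0.737% and 0.728% in wild type and 0.926%, 0.939% and 0.931% in the knockout. Here every knockout library was above every wild-type library. In means ± SD over 3 libraries the share of chromosome 18 was 0.773% ± 0.005 against 1.01% ± 0.013 with IFN-gamma, and that of chromosome 21 was 0.85% ± 0.007 against 0.656% ± 0.003.

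**Figure D3:**
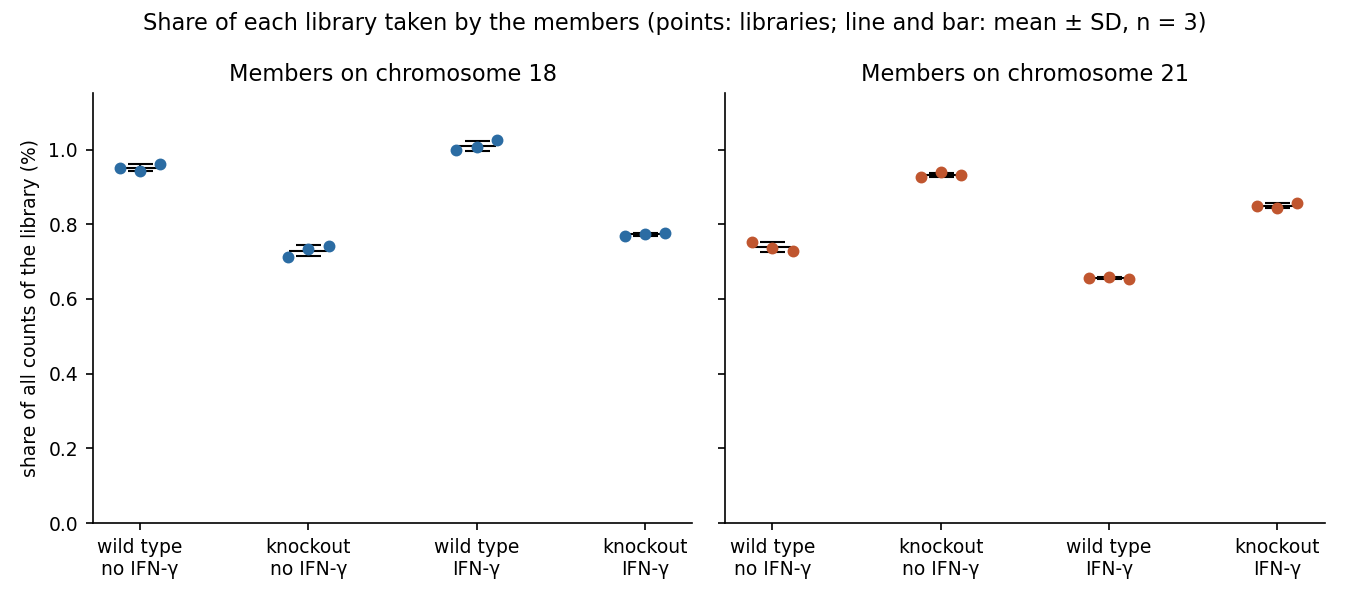
Percentage of all counts taken by the members of chromosome 18 and of chromosome 21 in each of 12 libraries, by group; points are libraries, and the line and bar give the mean ± SD of 3 libraries. Knockout libraries sit between 0.713% and 0.778% on 18, below wild type, and between 0.843% and 0.939% on 21, above wild type.

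All 6 knockout libraries carried the shift. Over the 124 members of chromosome 18 at 5 CPM or more, the median log2 ratio of a knockout library to the wild-type mean of its treatment ran from -0.38 to -0.34. Over 83 such members of chromosome 21 it ran from 0.42 to 0.48. Of the 124 members, 85 (68.5%) lay within 0.25 of the median of these 124 with IFN-gamma (-0.37). Of the 83, 50 (60.2%) lay within 0.25 of theirs (0.42). The same share was not computed for the other autosomes.

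The ratio moved with the level of the gene on chromosome 18. Its median with IFN-gamma was -1.42 over 16 members with a mean under 1 CPM, -1.06 over 27 at 1 to 5, -0.45 over 27 at 5 to 20, -0.40 over 76 at 20 to 100, and -0.26 over 21 at 100 CPM or more. On the other autosomes the same classes had medians of -0.38, -0.22, -0.06, 0.03 and 0.07, so low genes were lower in the knockout there too. On chromosome 21 the medians were 0.55, 0.60, 0.45, 0.39 and 0.43. The part of RNA level in these ratios was not tested further.

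On chromosome 18 the lowest ratios with IFN-gamma among members at 5 CPM or more were those of DTNA, CD226, HSBP1L1, EPB41L3 and SIGLEC15. In what follows a ratio is the log2 ratio of knockout to wild type, and where 2 are given for a gene the first is with and the second without IFN-gamma. DTNA encodes alpha-dystrobrevin of the dystrophin complex (chr18:34493290-34891844, plus strand, hg38). It read 18.5, 14.6 and 17.7 CPM in wild type with IFN-gamma and 3.20, 3.99 and 3.79 in the knockout, and 19.4, 20.4 and 22.3 against 6.59, 6.54 and 6.36 without. The groups were far apart in both treatments, with log2 ratios of -2.21 (SE 0.12) and -1.68 (SE 0.10). CD226, an activating receptor of natural killer cells, T cells and monocytes (chr18:69831158-69961803, minus strand), read 7.90, 9.01 and 8.87 CPM against 2.51, 2.20 and 2.14 with IFN-gamma, a ratio of -1.91 (SE 0.16). Without IFN-gamma it read 2.44, 2.34 and 1.95 against 0.576, 0.574 and 0.516. All 3 knockout libraries were below all 3 of wild type each time.

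EPB41L3 encodes a protein 4.1 family linker between membrane proteins and actin (chr18:5392381-5630700, minus strand). Its levels were 229.9, 226 and 234 CPM in wild type and 82.7, 84.5 and 83.2 in the knockout with IFN-gamma, and 38.6, 45.5 and 48.1 against 12.5, 13.0 and 12.3 without. The log2 ratios were -1.46 (SE 0.05) and -1.81 (SE 0.07), with no overlap. HSBP1L1, a relative of the heat shock factor binding protein, was at -1.65 and -1.07, and SIGLEC15, a sialic acid-binding receptor of macrophages and osteoclasts, at -1.28 and -1.0.

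A few members of chromosome 18 lay on the other side of 0. With IFN-gamma the highest ratios at 5 CPM or more included those of SMCHD1, RNF125 and DSC2. SMCHD1, a chromatin protein of X inactivation and imprinted clusters (chr18:2655738-2805017, plus strand), read 361, 373 and 373 CPM in wild type and 418, 428 and 436 in the knockout, a ratio of 0.21 (SE 0.04). Without IFN-gamma it read 145, 138 and 137 against 123, 133 and 135, a ratio of -0.10. Every knockout library was thus above every wild-type library with IFN-gamma and below every one without, there by a small margin (135 against 137 CPM at the closest). RNF125, a ubiquitin ligase that acts on RIG-I, was at 0.18 and 0.29, higher in both treatments, and DSC2, a desmosomal cadherin, at 0.17 and -0.10. Without IFN-gamma members above 0 included PSTPIP2 (0.86), CABLES1 (0.74), RNF125, ZNF516 (0.21) and CYB5A (0.21).

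On chromosome 21 the highest ratios with IFN-gamma at 5 CPM or more were those of OLIG1, MAP3K7CL, TMEM50B, ADARB1 and LRRC3. OLIG1 is a basic helix-loop-helix factor known from oligodendrocytes (chr21:33070144-33072420, plus strand). It read 3.73, 3.72 and 5.35 CPM in wild type and 10.3, 11.4 and 12.1 in the knockout with IFN-gamma, and 17.9, 18 and 16.4 against 37.1, 40.1 and 39.9 without. The groups did not overlap, and the ratios were 1.41 (SE 0.12) and 1.16 (SE 0.09). Its neighbour OLIG2 stood closer to 0 and read 4.21 ± 0.195 against 4.70 ± 0.633 (mean ± SD, n = 3), a ratio of 0.16. MAP3K7CL, a short relative of the kinase TAK1 without its own kinase domain, read 12.2, 13.0 and 10.9 against 29.4, 29.4 and 28.6 with IFN-gamma, a ratio of 1.27 (SE 0.12). ADARB1, an adenosine-to-inosine RNA editing enzyme, read 7.53, 7.71 and 7.08 against 18.3, 16.8 and 17.5, a ratio of 1.24 (SE 0.09), and 19.7, 23.2 and 21.3 against 31.2, 34.0 and 32.2 without IFN-gamma, a ratio of 0.60. TMEM50B was at 1.24 and 0.94, and LRRC3 at 1.21 and 0.55.

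CLIC6 had the lowest ratio on chromosome 21 in both treatments. It encodes a member of the chloride intracellular channel family (chr21:34669389-34718227, plus strand). It read 29.5, 28.9 and 27.6 CPM in wild type with IFN-gamma and 1.70, 1.55 and 1.84 in the knockout, 5.94% of wild type. Without IFN-gamma it read 32.7, 31.6 and 31.7 against 1.73, 1.72 and 1.61, 5.28%. Those log2 ratios of -4.07 and -4.24 stand against a chromosome median of 0.44 and 0.46. ABCG1, the cholesterol exporter of macrophages, read 10.1, 9.01 and 9.30 CPM in wild type with IFN-gamma and 6.65, 6.11 and 6.04 in the knockout, and its ratios were -0.60 and -0.61. Every knockout library was below every wild-type library for both genes. Without IFN-gamma CSTB (-0.53), ZBTB21 (-0.39), COL6A2 (-0.25) and, at low counts, BACE2 (-0.99) and SIK1B (-0.51) were below 0 too. SETD4 (0.00), C2CD2 (0.01) and ITSN1 (0.02) were near 0 with IFN-gamma. SETD4 overlaps CBR1 on the opposite strand and the counting used no strand, so these 2 cannot be told apart where they overlap.

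**Figure D4:**
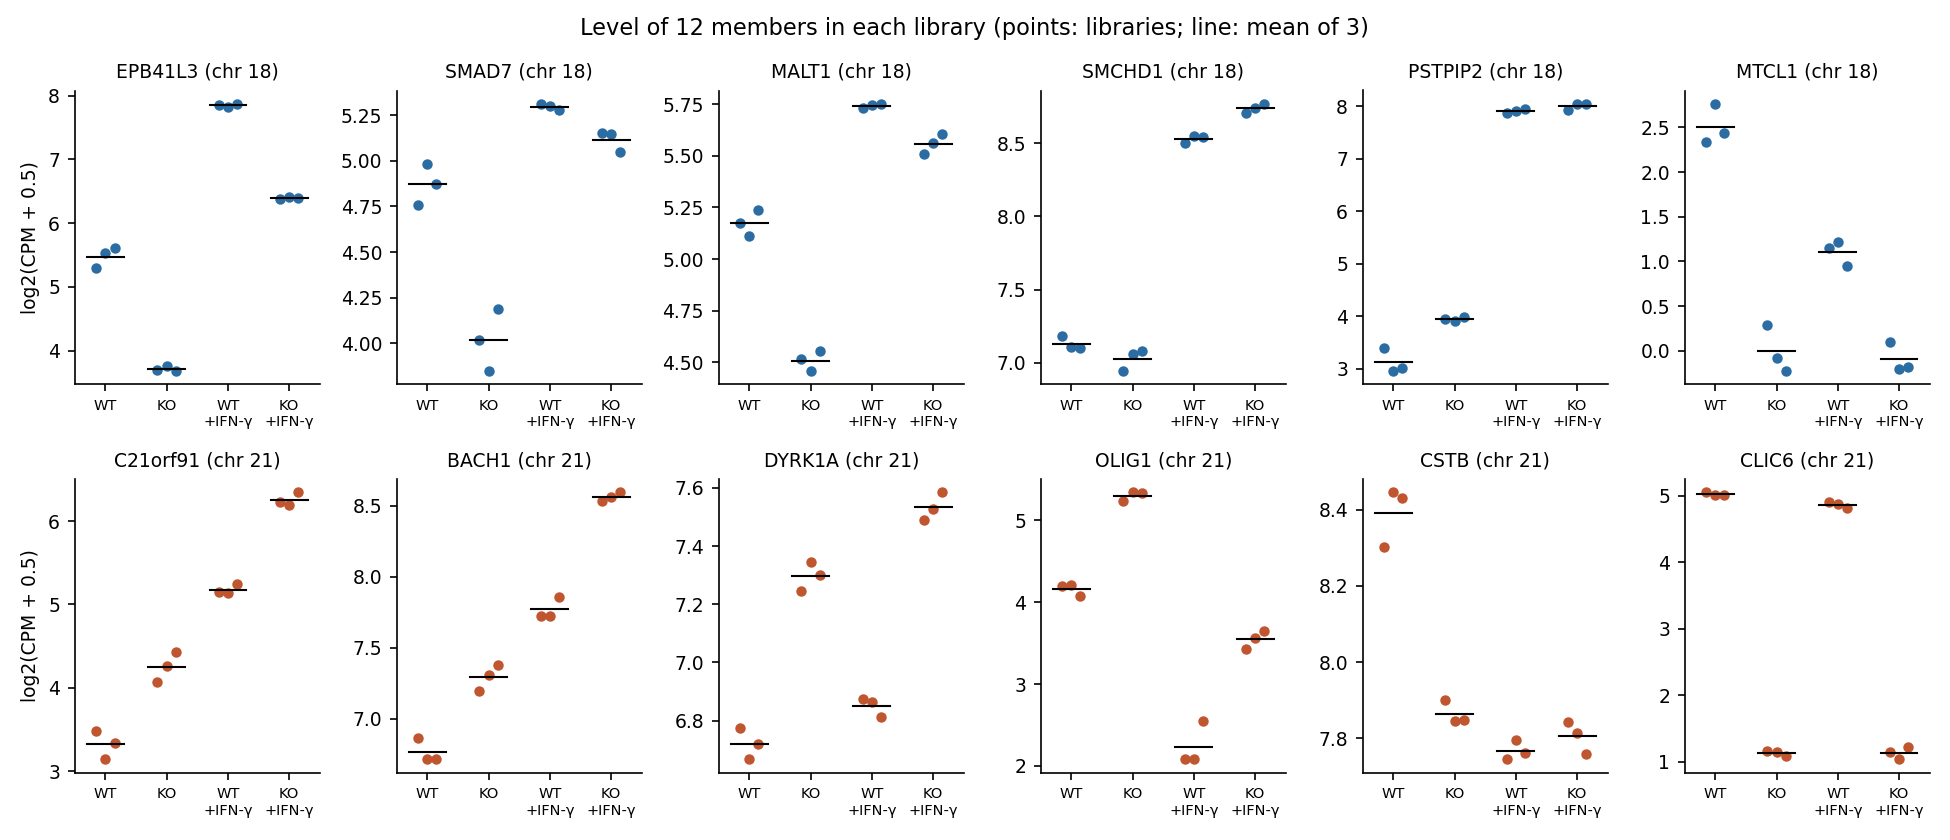
CPM in each library, on a log2 scale after adding 0.5, for 12 named members of chromosomes 18 and 21 by group; each point is a library. The lines are means of 3 libraries. EPB41L3, SMAD7 and MALT1 are lower and C21orf91, BACH1, DYRK1A and OLIG1 higher in the knockout, and CLIC6 lies near 1.69 CPM in the knockout against 28.7 in wild type with IFN-gamma.

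Role by role, the members of chromosome 18 in the SMAD branch of transforming growth factor-beta signalling were 4 of 4 below 0 with and without IFN-gamma, with medians of -0.33 and -0.51. SMAD4, the shared partner of receptor-activated SMADs (chr18:51028394-51085045, plus strand), read 42.6, 43.5 and 42.0 CPM against 35.3, 32.1 and 34.8 in the knockout with IFN-gamma, a ratio of -0.33 (SE 0.06), and 41.8, 39.1 and 42.3 against 28.7, 31.7 and 32.5 without, a ratio of -0.41. SMAD2, which the receptor phosphorylates, was at -0.34 and -0.51. SMAD7, the inhibitory SMAD that targets the receptor, was at -0.18 and -0.87, and the repressor TGIF1 at -0.49 and -0.51. Of 12 partners encoded elsewhere, 10 passed the filter on low counts: 7 were above and 3 below 0 with IFN-gamma (median 0.13), and 4 above and 6 below without (-0.02). Among them SMAD6 was at 0.93 and 0.48, SMAD3 at -0.58 and -0.02, TGFBR1 at -0.45 and -0.24 and TGFBR2 at 0.07 and 0.60.

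Of 8 immune signalling members on chromosome 18, 5 were below 0 with IFN-gamma (median -0.28) and 6 without (-0.30). MALT1, the paracaspase of NF-kappaB signalling, was at -0.19 and -0.68, and TNFRSF11A, the RANK receptor, at -1.38 and -1.45. NFATC1, a calcineurin-regulated factor, was at -0.48 and -0.32. PTPN2, a phosphatase that removes phosphate from JAK1, read 105, 109 and 107 CPM in wild type and 106, 109 and 112 in the knockout with IFN-gamma. The groups overlapped, and the ratio was 0.03 (SE 0.05), away from the chromosome's median.

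Of 9 cytoskeleton and contact genes of chromosome 18, 8 passed the filter, of which 5 were below 0 with IFN-gamma (median -0.25) and 8 without (-0.35). ROCK1, a kinase of actomyosin contraction, was at -0.37 and -0.27, the myosin light chains MYL12A and MYL12B at -0.19 and -0.31 with IFN-gamma, and MAPRE2, a microtubule end-binding protein, at -0.58. Of 11 nuclear regulators past the filter, 10 were below 0 and SMCHD1 above with IFN-gamma (median -0.35), with the E-protein TCF4 at -0.75 and -0.69. Of 12 metabolism and membrane traffic genes, all 12 were below 0 in both treatments (medians -0.48 and -0.43). KDSR of sphingolipid synthesis was at -0.58, mitochondrial malic enzyme ME2 at -0.49, and the ubiquitin ligase NEDD4L at -1.21, while LMAN1, a cargo receptor of the secretory pathway, was at -0.02. Outside these lists TUBB6, a beta-tubulin, was at 53.4% of wild type with IFN-gamma and 54.2% without.

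On chromosome 21 all 9 of 10 transcription and chromatin genes that passed the filter were above 0 in both treatments, with medians of 0.51 and 0.46. BACH1, a haem-regulated repressor (chr21:29194071-29630751, plus strand), read 211, 211 and 231 CPM in wild type and 371, 377 and 386 in the knockout with IFN-gamma, a ratio of 0.80 (SE 0.05). Without IFN-gamma it read 116, 104 and 104 against 146, 158 and 166, a ratio of 0.54, again with no overlap. ETS2, an ETS-family factor, was at 0.51 and 0.77, NRIP1, a nuclear receptor corepressor, at 0.42 and 0.65, GABPA at 0.51 and 0.46, and the nucleosome-binding HMGN1 at 0.23 and 0.22.

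In the kinase and Down syndrome region list all 7 genes past the filter were above 0 with IFN-gamma and 6 without (medians 0.55 and 0.47). DYRK1A, a dual-specificity kinase (chr21:37365790-37517450, plus strand), read 117, 116 and 112 CPM in wild type and 179, 184 and 191 in the knockout with IFN-gamma, and 109, 101 and 105 against 151, 162 and 157 without. The groups were separate in both, with ratios of 0.69 (SE 0.04) and 0.58 (SE 0.04). The calcineurin inhibitor RCAN1 was at 0.28 and 0.30, below the chromosome's median.

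Of 11 amyloid, endocytosis and adhesion genes of chromosome 21 past the filter, 10 were above 0 with IFN-gamma (median 0.44) and 8 without (0.27). APP, the amyloid precursor protein (chr21:25880550-26171128, minus strand), read 855, 808 and 826 CPM in wild type and 1088, 1044 and 1048 in the knockout with IFN-gamma, a ratio of 0.35 (SE 0.03), with no overlap. ADAMTS1, a secreted metalloprotease, was at 1.65 and 1.37. COL6A1 was at 0.59 and 0.07, and COL18A1 at 0.46 and 0.92. COL18A1 overlaps SLC19A1 on the opposite strand, where unstranded counts cannot be told apart.

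Of 9 genes in the metabolism list of chromosome 21, 8 were above 0 with IFN-gamma and 6 without (medians 0.43 and 0.28). The list also holds the protease inhibitor CSTB and PTTG1IP, which are not metabolic enzymes. GART of purine synthesis was at 0.80 and 0.40, AGPAT3 of phospholipid synthesis at 0.55 and 0.56, and PTTG1IP at 0.77 and 0.71. CBR1, a carbonyl reductase, was near 0 at 0.10 and 0.00. Of 11 genes of RNA and protein handling, 11 were above 0 with IFN-gamma and 9 without (medians 0.34 and 0.38). SON, a splicing cofactor of nuclear speckles (chr21:33542618-33577481, plus strand), read 607, 631 and 638 CPM in wild type and 904, 924 and 981 in the knockout with IFN-gamma, and 619, 564 and 571 against 892, 870.3 and 861 without. The ratios were 0.58 and 0.58, with no overlap. SON overlaps DONSON and GART on the opposite strand. The chaperonin subunit CCT8 was at 0.39 and 0.38.

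The responses to IFN-gamma were tested within each genotype. In wild type 67 members of chromosome 18 rose and 41 fell, and 39 of chromosome 21 rose and 42 fell, by edgeR's quasi-likelihood test with Benjamini-Hochberg adjustment at 0.05 over all 17119 tested genes. The background was 28.6% of all tested genes higher and 27.9% lower, and among protein-coding genes of the other autosomes 32.7% and 31.2%. In the knockout 63 members of chromosome 18 rose and 47 fell, and 40 of chromosome 21 rose and 47 fell, where 29.2% of all genes were higher and 31.8% lower. Among protein-coding genes of the other autosomes 33.1% were higher and 34.7% lower in the knockout. The shares on chromosome 18 were 40.1% higher in wild type and 37.7% in the knockout, and on chromosome 21 37.2% and 41.6% lower. Scaling moved this balance for all genes: with library totals alone the median of all genes went to -0.27 in wild type and -0.35 in the knockout, and with upper-quartile scaling to -0.13 and -0.17. With library totals 39 members of chromosome 18 rose and 82 fell in wild type and 36 and 90 in the knockout, while on chromosome 21 27 rose and 65 fell in wild type and 27 and 69 in the knockout. With upper-quartile scaling the counts on chromosome 18 were 53 and 56 in wild type and 48 and 60 in the knockout.

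By the same test in both genotypes 90 members rose (32.1%) and 69 fell (24.6%), against 23.9% and 22.6% of all genes, and ZNF516, ZBTB21 and LRRC3 were called in opposite directions (1.07%, against 0.707% of all genes). All genes here include tested genes that are not protein-coding, which the members are not. The share called in both genotypes was not computed over protein-coding genes alone. Across the 280 tested members Pearson's r between the 2 responses was 0.85, as a description. The median response of the members was 0.08 in wild type and 0.03 in the knockout on chromosome 18, and -0.04 and -0.08 on chromosome 21.

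**Figure D5:**
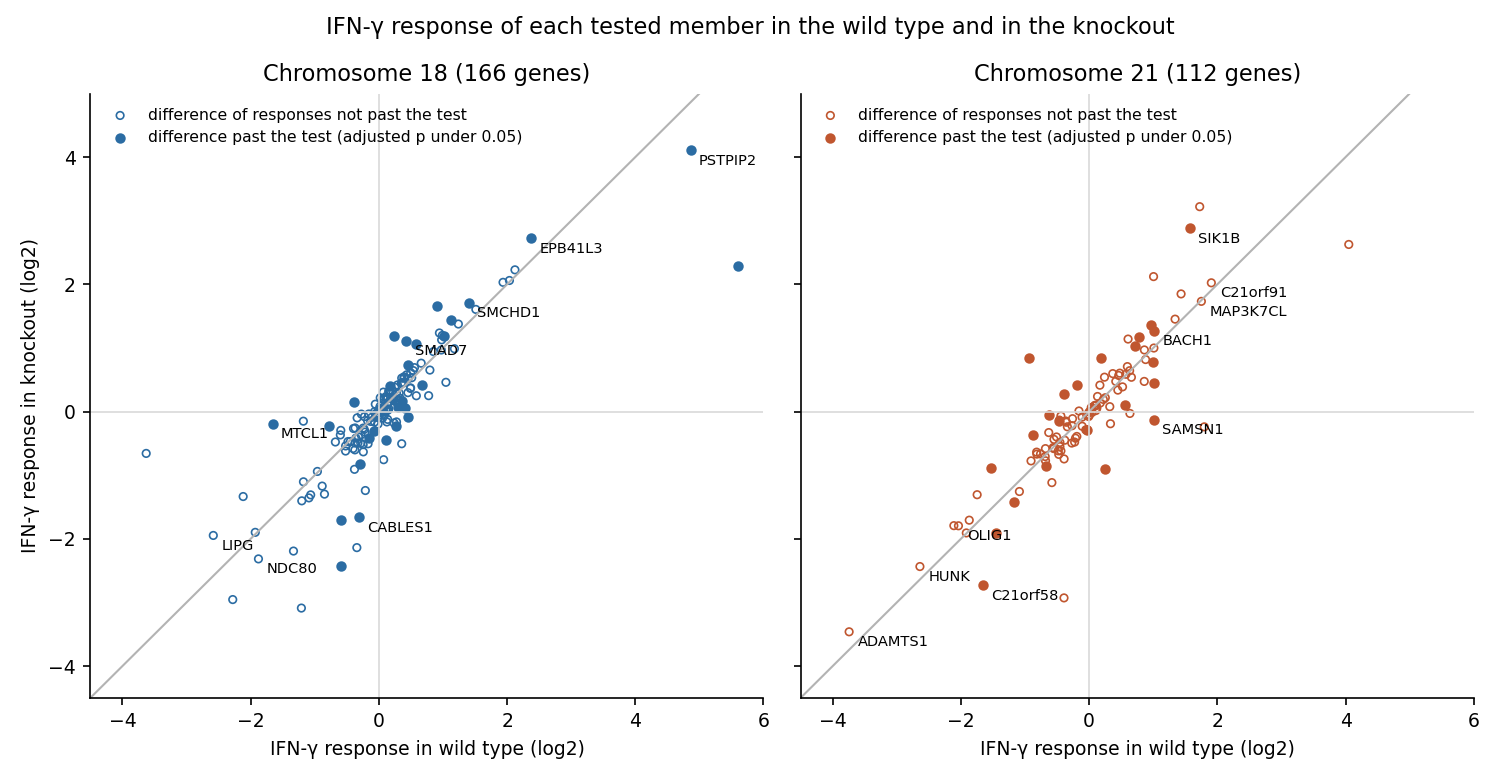
Log2 change with IFN-gamma in the knockout (vertical axis) against that in wild type (horizontal axis) for each member of chromosomes 18 and 21; points are genes and the diagonal marks equal change. Most points lie near the diagonal, with PSTPIP2 at 4.86 and 4.11 and ADAMTS1 at -3.74 and -3.46; SERPINB10 and UMODL1, at 0 counts in a whole group, are not drawn.

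On chromosome 18 PSTPIP2, an actin-bundling F-BAR adaptor of myeloid cells whose loss causes autoinflammation in mice, had the largest rise among members at 5 CPM or more (chr18:45983536-46072272, minus strand, ENSG00000152229). It read 10.1, 7.28 and 7.58 CPM in wild type without IFN-gamma and 235, 239 and 246 with it. In the knockout it read 14.9, 14.5 and 15.3 without and 244, 264 and 262 with it. All treated libraries were above all untreated ones, and the untreated knockout libraries were above the untreated wild type while the treated groups were 0.10 apart on the log2 scale. The rise was 29.1-fold in wild type (log2 4.86, SE 0.07, edgeR adjusted p 6.6e-33) and 17.2-fold in the knockout (log2 4.11, SE 0.06, edgeR adjusted p 5.8e-32).

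EPB41L3, ST8SIA5 and CD226 were the next largest rises on chromosome 18. EPB41L3, whose levels are given above, rose 5.2-fold in wild type and 6.62-fold in the knockout (edgeR adjusted p 6.6e-27 and 9.3e-27). ST8SIA5, a sialyltransferase of gangliosides, went from 5.47 ± 0.848 to 23.9 ± 1.38 CPM in wild type and from 2.40 ± 0.130 to 11.3 ± 0.788 in the knockout (mean ± SD, n = 3). CD226 rose 3.83-fold and 4.09-fold. All 3 genes started from a lower level in the knockout. The difference between the responses was 0.35 for EPB41L3 (edgeR adjusted p 0.004), 0.11 for ST8SIA5 (0.76) and 0.09 for CD226 (0.88).

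PTPN2 went from 38.8, 36.8 and 36.9 to 105, 109 and 107 CPM in wild type and from 32.5, 36.4 and 38.4 to 106, 109 and 112 in the knockout. Treated and untreated libraries were apart in both, and the rises were 2.85-fold (edgeR adjusted p 1.1e-21) and 3.04-fold (edgeR adjusted p 1.8e-22). SMCHD1 rose 2.64-fold and 3.28-fold, KDSR 2.36-fold and 2.60-fold, and PIAS2, a SUMO ligase, 2.26-fold and 1.98-fold. EPG5, an autophagy tether, rose 1.97-fold and 2.18-fold, RMC1, of the Mon1-Ccz1 complex of late endosomes, 2.19-fold and 2.7-fold, and the dipeptidase CNDP2 2.02-fold and 2.28-fold. DSC2, whose window holds a GAS, changed by 0.46 and 0.73 on the log2 scale (edgeR adjusted p 1.4e-11 and 9.9e-17).

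The falls on chromosome 18 at 5 CPM or more were led by LIPG, NDC80, TNFRSF11A and C18orf54. LIPG, endothelial lipase (chr18:49560699-49599182, plus strand), read 4.19, 7.0 and 6.57 CPM without and 1.12, 1.44 and 0.348 with IFN-gamma in wild type, and 1.30, 0.542 and 1.29 without and 0.243, 0.244 and 0.306 with it in the knockout. Its log2 changes were -2.58 (SE 0.29) and -1.95 (SE 0.46), at edgeR adjusted p 3.9e-09 and 4.3e-04. NDC80, the kinetochore protein that holds microtubules, read 27.9, 26.7 and 21.8 without and 6.69, 7.68 and 6.34 with IFN-gamma in wild type and 17, 17.6 and 18.3 without and 3.65, 3.22 and 3.75 with it in the knockout. All treated libraries of both genes were below all untreated ones of the same genotype. NDC80 changed by -1.88 (SE 0.10) in wild type and -2.32 (SE 0.12) in the knockout. SERPINB10, a serpin of myeloid cells, had 172 counts over the 3 wild-type libraries without IFN-gamma and 0 with it. With 3 counts per group taken as the floor, it was at least 57.2-fold higher without IFN-gamma.

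By role, counts of members past the test stand beside 28.6% of all genes higher and 27.9% lower in wild type and 29.2% and 31.8% in the knockout. Among protein-coding genes of the other autosomes the shares were 32.7% and 31.2% in wild type and 33.1% and 34.7% in the knockout. The SMAD branch of chromosome 18 had 3 of 4 members rise and none fall in each genotype, with medians of 0.29 and 0.42. Immune signalling members rose in 5 and fell in 1 of 8 in wild type and in 4 and 1 in the knockout. Cytoskeleton genes rose in 5 and fell in 2 of 8 in wild type and in 4 and 2 in the knockout. Nuclear regulators rose in 5 and fell in 2 of 11, and in 6 and 1. Metabolism and traffic genes rose in 9 and fell in 1 of 12, and in 8 and 1. With library totals alone SMAD2 in wild type, at 0.15 with TMM, turned to -0.10, and ROCK1 from 0.11 to -0.14.

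On chromosome 21 the largest rises in wild type at 5 CPM or more were those of C21orf91, MAP3K7CL, SIK1B and CBS. C21orf91 (chr21:17788967-17819386, minus strand, ENSG00000154642) read 10.7, 8.32 and 9.63 CPM without and 34.9, 34.6 and 37.5 with IFN-gamma in wild type, and 16.2, 18.6 and 21 without and 74.4, 72.5 and 80.7 with it in the knockout. The 4 groups were separate from each other, the treated knockout being highest. The rise was 3.75-fold in wild type (log2 1.91, SE 0.09, edgeR adjusted p 1.1e-18) and 4.07-fold in the knockout (log2 2.02, SE 0.08, edgeR adjusted p 6.3e-21). SIK1B rose 2.97-fold in wild type and 7.40-fold in the knockout, where its rise was larger than that of C21orf91. MAP3K7CL rose 3.37-fold and 3.32-fold. SLC37A1, a sugar phosphate exchanger of the endoplasmic reticulum whose window is shown above, rose 2.53-fold and 2.74-fold. BACH1 rose 2.01-fold and 2.41-fold, GART 1.94-fold and 2.57-fold, and APP 1.51-fold and 1.63-fold, all at edgeR adjusted p of 3.0e-16 or less.

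ADAMTS1 had the largest fall on chromosome 21 at 5 CPM or more (chr21:26835747-26845409, minus strand, ENSG00000154734). It read 13.8, 10.9 and 12.3 CPM without and 1.12, 0.608 and 1.04 with IFN-gamma in wild type, and 31.7, 32.0 and 31.9 without and 2.76, 2.93 and 2.98 with it in the knockout. IFN-gamma libraries were at 7.46% of untreated ones in wild type (log2 -3.74, SE 0.15, edgeR adjusted p 4.5e-20) and at 9.08% in the knockout (log2 -3.46, SE 0.12, edgeR adjusted p 1.1e-22). OLIG1 fell to 24.3% and 28.8%, and OLIG2 to 26.5% and 26.6%. ITSN1, an endocytic scaffold, fell to 44.6% and 37.4%, and ADARB1 to 34.8% and 54.1%. UMODL1 had 36 counts over the wild-type libraries without IFN-gamma and 0 with it, at least 12.0-fold higher without.

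Transcription and chromatin genes of chromosome 21 rose in 5 and fell in 1 of 9 in wild type and in 4 and 2 in the knockout. The kinase and Down syndrome region list rose in 3 and fell in 3 of 7 in each genotype, and with library totals alone DYRK1A, at 0.13 and 0.24 with TMM, turned to -0.12 and -0.06. Amyloid, endocytosis and adhesion genes rose in 2 and fell in 6 of 11 in each. Genes of the metabolism list rose in 6 and fell in 3 of 9 in wild type and in 6 and 2 in the knockout. RNA and protein handling genes rose in 4 and fell in 2 of 11 in wild type and in 4 and 3 in the knockout. SON, at 0.10 and 0.10 with TMM, turned to -0.15 and -0.20 with library totals and to -0.02 in both with upper-quartile scaling.

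The difference between the knockout and wild-type responses was tested as an interaction. It was higher in the knockout for 13 members of chromosome 18 and lower for 15, and higher for 13 and lower for 10 of chromosome 21. Among all genes 7.61% were higher and 7.86% lower, and among protein-coding genes of the other autosomes 9.42% and 9.53%. The other 139 and 90 members were not called. Without the first knockout or the first wild-type library with IFN-gamma, 8 members of chromosome 18 were higher, and without the second untreated knockout library 8 were lower. On chromosome 21 the lower count was 5 without the second treated knockout library, and 6 without the third treated knockout, the second untreated knockout or the third untreated wild-type library.

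On chromosome 18 ZCCHC2, a zinc finger protein, read 71.9, 80.7 and 84.6 CPM without and 147, 148 and 148 with IFN-gamma in wild type, and 34.3, 37.0 and 35.7 without and 112, 113 and 112 with it in the knockout. The knockout rose from a lower start, 3.15-fold against 1.87-fold, a difference of 0.75 on the log2 scale (SE 0.07, edgeR adjusted p 2.6e-09). SMAD7 read 26.6, 31.1 and 28.8 without and 39.2, 38.9 and 38.4 with IFN-gamma in wild type and 15.7, 13.9 and 17.7 without and 35.0, 34.9 and 32.7 with it in the knockout. It rose 2.17-fold in the knockout and 1.34-fold in wild type, a difference of 0.69 (SE 0.11, edgeR adjusted p 1.6e-05). MALT1 rose 2.09-fold against 1.49-fold, a difference of 0.49 (SE 0.08, edgeR adjusted p 5.5e-05). For all 3 genes the untreated groups were further apart than the treated ones.

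PSTPIP2 had a smaller rise in the knockout, a difference of -0.76 (SE 0.10, edgeR adjusted p 6.3e-07). CABLES1, a cyclin-dependent kinase adaptor, read 6.94, 6.57 and 5.53 CPM without and 5.77, 4.60 and 5.0 with IFN-gamma in wild type, and 10.7, 10.2 and 10.9 without and 3.93, 3.5 and 2.64 with it in the knockout. The knockout was above wild type without IFN-gamma and below it with, and the difference was -1.35 (SE 0.20, edgeR adjusted p 5.0e-06). ZNF516 rose by 0.26 in wild type, while the knockout change was -0.23, a fall, with a difference of -0.49 (edgeR adjusted p 8.8e-07). With library totals alone its wild-type change was 0.01 (edgeR adjusted p 0.86). MTCL1, a microtubule crosslinker, had a difference of 1.46 (SE 0.43, edgeR adjusted p 0.018) at 0.507 and 0.439 CPM in the knockout. Its adjusted p was 0.10 without the first treated knockout library and 0.057 without the third untreated one.

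On chromosome 21 SIK1B had the largest positive difference among members at 5 CPM or more, 1.32 (SE 0.24, edgeR adjusted p 1.3e-04), reading 1.83, 1.60 and 2.21 without and 5.57, 4.79 and 6.43 CPM with IFN-gamma in wild type and 1.30, 1.37 and 1.29 without and 9.40, 10.4 and 9.56 with it in the knockout. It is a near copy of SIK1, and reads of such pairs cannot be told apart with certainty. CSTB, the cysteine protease inhibitor cystatin B (chr21:43772512-43776445, minus strand), read 315, 348 and 344 without and 214, 222 and 217 with IFN-gamma in wild type and 238, 229.7 and 229.9 without and 229, 225 and 216 with it in the knockout. Wild type fell to 64.7% of its untreated level, while the knockout was at 96.0%, and the difference was 0.57 (SE 0.06, edgeR adjusted p 9.6e-09). The treated groups overlapped, and the untreated ones did not. The collagen VI chains COL6A1 and COL6A2 fell less in the knockout, with differences of 0.52 and 0.33 (edgeR adjusted p 1.9e-07 and 0.001). The fall of COL6A2 in the knockout was not called without the second or the third treated or the first untreated knockout library (edgeR adjusted p 0.15, 0.086 and 0.096).

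TRPM2, a calcium channel gated by ADP-ribose (chr21:44350163-44443081, plus strand), read 111, 118 and 115 CPM without and 234, 238 and 225 with IFN-gamma in wild type, and 192, 189.9 and 179 without and 263, 247 and 256 with it in the knockout. It rose 2.02-fold in wild type and 1.37-fold in the knockout from a higher start, a difference of -0.57 (SE 0.06, edgeR adjusted p 1.5e-08). SAMSN1, an SH3-domain adaptor of haematopoietic cells, rose 2.01-fold in wild type and stood at a log2 change of -0.13 in the knockout (edgeR adjusted p 0.42), a difference of -1.14 (SE 0.20, edgeR adjusted p 1.1e-04). LRRC3 fell in wild type, with a log2 change of -0.39, and rose by 0.27 in the knockout, a difference of 0.66 (edgeR adjusted p 2.7e-05). ZBTB21, a zinc finger repressor, also went in opposite directions, -0.18 against 0.42, with a difference of 0.60 (edgeR adjusted p 4.3e-05). The fall of ZBTB21 in wild type was not called without the first or the third treated or the second or the third untreated wild-type library (edgeR adjusted p 0.075, 0.063, 0.064 and 0.098) or with no filter on low counts (0.066). With library totals its rise in the knockout was 0.12 (edgeR adjusted p 0.12). The rise of LRRC3 in the knockout turned to -0.03 with library totals alone.

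Motifs were counted by letter in 300 bases around each start site of the RefSeq table, from 250 before to 50 after it. A GAS was taken as TTCNNNGAA, which reads the same on both strands, and an ISRE as TTTCNNTTTC on either strand. Windows were counted for each motif separately, and a match of one may overlap a match of the other. Of 281 members, 219 matched the table, with 375 windows. A GAS was in 23 windows (6.13%) and an ISRE in 10 (2.67%), against 7.66% and 3.57% of all 35116 windows. Of the matched members at 5 CPM or more, 12 rose at least 2-fold in both genotypes, with 24 windows. Members without a match are not in this count. Among the 12, CNDP2 held the GAS and SLC37A1 the ISRE, 4.17% each. All 534 matched genes chosen the same way held a GAS in 9.79% and an ISRE in 12.0% of 807 windows. The members that rose in both genotypes, 73 matched genes with 136 windows, held a GAS in 10 windows (7.35%) and an ISRE in 1 (0.735%). These are matches by letter, and no match says only that the letters are not in the window.

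Several members of chromosome 21 have near-identical copies in the assembly, among them CBS and CBSL, U2AF1 and U2AF1L5, KCNE1 and KCNE1B, and SIK1 and SIK1B, so their separate counts are uncertain. KCNE1 was at 1.18 and 1.43 and KCNE1B at 1.69 and 1.56 with and without IFN-gamma. U2AF1 read only 0.837 CPM in wild type with IFN-gamma. The genes left out by name had medians of -0.97 and -0.63 with and without IFN-gamma over 8 genes of chromosome 18, and 0.48 and 0.54 over 16 genes of chromosome 21. Among them IFNGR2, a chain of the IFN-gamma receptor, was at 0.55 and 0.46, and COLEC12 at -6.02 and -5.56.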

How the data were processed

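RNA of 12 libraries (1 µg total RNA each, TruSeq Stranded mRNA kit, per the labels' protocols) was counted per gene by the authors. The deposited values are raw counts from featureCounts 2.0.3 on hg38 with mates counted separately and no strand option, per the file headers. Of counts from 1 to 19, 71.8% were even, and genes overlapping on opposite strands cannot be told apart. Tools named in the submitters' processing notes are Subread, MultiQC 1.13, FastQC, Picard 2.27.5, BWA, STAR 2.7.10b and fastp 0.23.2. For the counted alignments the aligner, and for the annotation its release, were not given in the sources used here. Biotypes came from GENCODE 29, where 57447 of 58051 rows were found, 96.2% of them with the same bounds.

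All 17119 genes kept by filterByExpr were fitted together (edgeR 4.0.16 quasi-likelihood, TMM scaling, 4 groups of 3 libraries, R 4.3.3) and p-values were two-sided and Benjamini-Hochberg adjusted over all of them at 0.05. The scripts were tested on simulated data. No pair of replicate libraries agreed within sampling noise by a chi-square test, which the separate counting of mates inflates, and each library was counted as 1 sample. The members, the role lists and the tests were chosen with earlier results of these data known, so no list carries a p-value. By rule the text names, per chromosome and among members at 5 CPM or more in the higher group, the 5 lowest and 5 highest knockout ratios with IFN-gamma, the 4 largest rises and falls called in both genotypes and the 3 highest and 3 lowest called differences, and a panel of 20 genes. Other named genes come from the role lists, or were chosen after their values were seen. Alternatives were DESeq2 1.42.0, limma-voom (limma 3.58.1), other scalings, other filters on low counts, fits on the compared libraries alone, a replicate block and leaving out each library. Summaries used Python 3.11.15 with pandas 2.3.3 and numpy 2.4.6, and plots matplotlib 3.10.9, on log2 CPM with 0.5 added. With 23616738 to 29426415 counts per library, a member under about 1 CPM rests on few counts.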

Additional observations from a re-analysis of the deposited data

Results flagged for a closer look

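The response to IFN-gamma differed between the knockout and wild type, by edgeR's test of the interaction, for 42 named members. Values are the log2 response in the knockout minus that in wild type. Over all tested members the shares called were 7.78% higher and 8.98% lower on chromosome 18, and 11.5% and 8.85% on chromosome 21. They stand beside 7.61% and 7.86% of all tested genes, and 9.42% and 9.53% of protein-coding genes of the other autosomes. No explanation was weighed.

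On chromosome 18 the difference was positive for MTCL1 (1.46), ZCCHC2 (0.75), SMAD7 (0.69), DSG2 (0.56), FAM210A (0.54), MALT1 (0.49), EPB41L3 (0.35), SMCHD1 (0.31), RMC1 (0.30), DSC2 (0.27), RNMT (0.23) and CNDP2 (0.18). It was negative for CABLES1 (-1.35), PSTPIP2 (-0.76), MPPE1 (-0.56), DTNA (-0.53), NEDD4L (-0.53), ZNF516 (-0.49), MBP (-0.26), RAB31 (-0.26) and LPIN2 (-0.20). DSG2 and DSC2 encode desmosomal cadherins, and MBP encodes golli and myelin basic proteins. The call was lost without the first treated library of the knockout or of wild type for DTNA (-0.45 and -0.47), and without either of these or the second untreated knockout library for MPPE1 (-0.47, -0.47 and -0.43). For NEDD4L it was lost without the second treated or second untreated knockout library or the second treated wild-type library (-0.40, -0.50 and -0.47). It was lost without the first treated or the third untreated knockout library for MTCL1 (1.24 and 1.26). For FAM210A, RMC1, RNMT, CNDP2 and LPIN2 at least 5 of the alternatives run lost it.

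On chromosome 21 the difference was positive for SIK1B (1.32), LRRC3 (0.66), BTG3 (0.66), ADARB1 (0.64), ZBTB21 (0.60), CSTB (0.57), COL6A1 (0.52), GART (0.40), USP25 (0.40), COL6A2 (0.33), HSPA13 (0.31) and BACH1 (0.26). It was negative for SAMSN1 (-1.14), C21orf58 (-1.07), TRPM2 (-0.57), COL18A1 (-0.46), SLC19A1 (-0.45), ETS2 (-0.26), ITSN1 (-0.25), NRIP1 (-0.22) and TTC3 (-0.19). BTG3 is an antiproliferative gene and USP25 a deubiquitinase. COL18A1 and SLC19A1 overlap each other, so their differences may not be separate observations, which was not tested. The call for ITSN1 was lost without the second treated or the third untreated knockout library or the second treated wild-type library (-0.22, -0.23 and -0.21), and with no filter on low counts (-0.24). For SLC19A1, HSPA13, TTC3, NRIP1 and ETS2 at least 7 of the alternatives run lost it.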

How the results depend on the processing

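The medians kept their sign under every alternative run. With IFN-gamma the median of chromosome 18 was -0.40 when genes at 5 CPM or more in 3 libraries were fitted, -0.50 with library totals alone, -0.44 with upper-quartile scaling, -0.39 over all biotypes and -0.38 over members at 5 CPM or more. That of chromosome 21 was 0.46 with DESeq2 and with RLE size factors, 0.41 with the 5 CPM filter, 0.36 with library totals, 0.43 with limma-voom, 0.43 on the compared libraries alone, 0.42 with upper-quartile scaling and 0.43 over members at 5 CPM or more. Without IFN-gamma the median of chromosome 18 was -0.43 with library totals and -0.38 over members at 5 CPM or more, and that of chromosome 21 was 0.50 over all biotypes. With library totals, members called with IFN-gamma in wild type were 39 higher and 82 lower on chromosome 18 and 65 lower on chromosome 21, and in the knockout 36 higher and 90 lower on chromosome 18. All genes then split into 2767 higher and 8260 lower in wild type (4896 and 4770 with TMM) and 2787 and 9141 in the knockout (5005 and 5451), and with upper-quartile scaling into 3751 and 6246 and into 3928 and 6864. Signs reversed for RNF125 (-0.10), SMAD2 (-0.10), ROCK1 (-0.14), DYRK1A (-0.12) and SON (-0.15) in wild type and for LRRC3 (-0.027), DYRK1A (-0.060) and SON (-0.20) in the knockout with library totals, and for ROCK1 (-0.00249) and SON (-0.018 in wild type and -0.020 in the knockout) with upper-quartile scaling. The cause was not tested. Leaving out each library gave medians of -0.43 to -0.39 (chromosome 18) and 0.41 to 0.47 (21) with IFN-gamma and of -0.41 to -0.37 and 0.44 to 0.46 without. It gave 8 to 14 higher and 8 to 15 lower differences on 18 and 11 to 15 and 5 to 13 on 21. Called responses ran from 63 to 67 and 38 to 44 on 18 and from 34 to 41 and 37 to 42 on 21 in wild type, and from 61 to 65 and 41 to 47 on 18 and from 36 to 41 and 39 to 47 on 21 in the knockout. Same-numbered libraries did not deviate together more than others (r from -0.20 to 0.28, against -0.23 to 0.26 for different numbers, over 10747 genes). With 3 libraries per group this cannot tell whether the numbers pair the libraries. With the replicate block the medians were -0.42 and -0.40 on 18 and 0.44 and 0.46 on 21, and called differences were 13 higher and 15 lower on 18 and 12 and 10 on 21. Results for single members were counted once per alternative, so 1 result enters many times. Of these counts, 6156 stayed the same, 163 lost the call and 11 reversed. The other 72 were genotype ratios, given with no test, that moved. Counts limit members under 1 CPM most.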
